A study of Arabidopsis thaliana with 12 samples.

Results

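HFR1 (AT1G02340), PIL1 (AT2G46970), PAR1 (AT2G42870) and PAR2 (AT3G58850) are 4 Arabidopsis thaliana genes for basic helix-loop-helix (bHLH) or helix-loop-helix (HLH) proteins that restrain growth in shade. They were taken by gene identifier, as 4 of the 33602 genes in the table of transcript levels, and all 4 passed the filter on low values. These genes and the gene lists below were chosen with earlier results of these data known. The shares of all tested genes set beside them therefore give a scale and no independent support. The study crossed shade with warmth: wild-type Columbia 0 seedlings, 3 d old, spent the 10 h light period of day 4 in shade at 28 °C, in shade at 20 °C, in white light at 28 °C or in white light at 20 °C, and were collected at its end. Each of these 4 groups had 3 biological replicates. All had first grown on agar at 22 °C with 10 h of white light a day at 100 µmol per square metre per second and a red to far-red ratio of 1.1. No mutant or transgene was involved, and the light used as shade was not described beyond that word in the labels.

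Shade from leaves is poor in red light, which inactivates phytochrome B and frees the phytochrome-interacting factors (PIFs), bHLH proteins that bind the G-box and switch on genes for elongation. The same PIFs also switch on a set of brakes. HFR1, an atypical bHLH protein, pairs with PIFs into dimers that cannot bind DNA, and is itself marked for breakdown by the COP1 and SPA proteins. PIL1 is a close relative of the PIFs that binds them and limits elongation, and it is among the earliest genes known to respond to shade. PAR1 and PAR2 are a pair of small related HLH proteins that lack DNA binding of their own and act by pairing with other bHLH proteins.

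The letters upstream of the 4 genes are shown first because PIFs recognise the G-box, CACGTG, and the PBE-box, CACATG or its reverse complement CATGTG. The sequences are from the RefSeq TAIR10.1 assembly, and all 4 genes lie on its minus strand: HFR1 at chr1:465616-467880 with 5 exons, PIL1 at chr2:19295431-19297858 with 6 exons, PAR1 at chr2:17836416-17837618 with 1 exon and PAR2 at chr3:21759350-21760390 with 1 exon. Each stretch reads 5′ to 3′ towards the gene, from 20 bases before the first G-box to 50 bases after the last, and capitals mark G-boxes and PBE-boxes. The first HFR1 stretch is chr1:469244-469319 and the second chr1:468825-468900. The PIL1 stretch is chr2:19298896-19299100, that of PAR1 chr2:17838500-17838575 and that of PAR2 chr3:21761365-21761440.
HFR1 distal: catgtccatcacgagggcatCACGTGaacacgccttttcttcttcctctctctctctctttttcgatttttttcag
HFR1 proximal: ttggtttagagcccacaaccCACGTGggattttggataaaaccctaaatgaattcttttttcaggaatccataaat
PIL1: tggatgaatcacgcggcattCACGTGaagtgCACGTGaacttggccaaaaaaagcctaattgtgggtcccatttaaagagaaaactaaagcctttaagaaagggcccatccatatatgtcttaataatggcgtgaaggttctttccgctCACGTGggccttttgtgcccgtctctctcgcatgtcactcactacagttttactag
PAR1: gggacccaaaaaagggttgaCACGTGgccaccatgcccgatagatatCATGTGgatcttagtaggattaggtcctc
PAR2: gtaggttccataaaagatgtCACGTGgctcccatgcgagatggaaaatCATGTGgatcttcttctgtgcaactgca

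All 4 genes held a G-box in the 2000 bases before their annotated start. PIL1 had 3 matches, starting 1222, 1211 and 1093 bases upstream, HFR1 had 2, at 1419 and 1000 bases, PAR1 had 1 at 937 bases and PAR2 had 1 at 1030 bases. Among 27440 protein-coding genes searched over the same length, 23.8% held at least 1 G-box, 5.48% at least 2 and 1.33% at least 3. PAR1 had 4 PBE-boxes and PAR2 had 6, of which 1 pair overlapped, while HFR1 had 1 and PIL1 had none; 61% of the genes searched held at least 1 and 3.48% at least 4. The windows of PAR1 and PAR2 resemble each other: the next CATGTG starts 27 bases after the G-box in PAR1 and 28 bases after it in PAR2, and 51 of 79 aligned positions were identical. No match to CAATNATTG was found upstream of any of the 4 genes, and 6.35% of the genes searched held one. This pattern takes in the site of the shade-induced HD-ZIP II homeobox proteins. With any base allowed at its centre, it is broader than that site. Motifs were counted on both strands. The PAR1 G-box and its PBE-boxes lie inside an annotated long noncoding RNA gene, AT2G09405, and the other matches lie between genes. A match in letters is no measurement of binding.

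**Figure D1:**
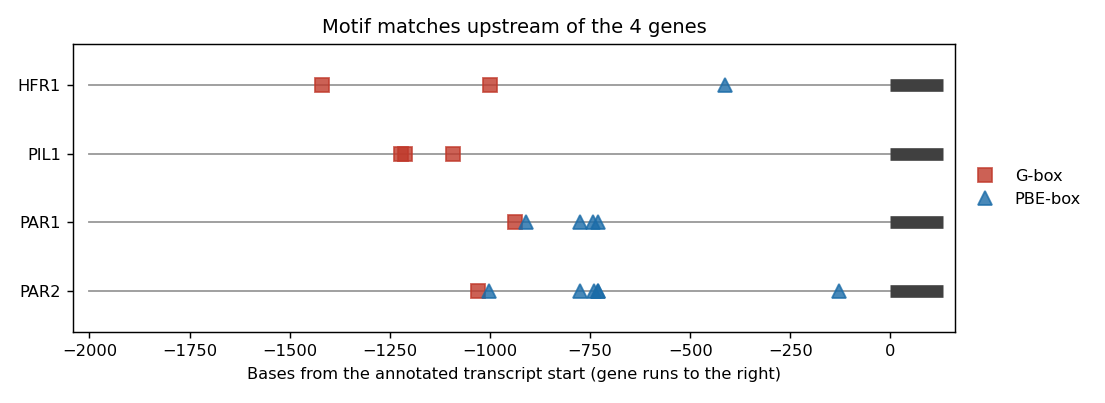
Positions of motif matches in the 2000 bases before the annotated start of each gene, in bases, with the gene running to the right from 0. Squares are G-boxes and triangles are PBE-boxes; the 7 G-boxes lie between 937 and 1419 bases upstream, and PAR1 and PAR2 each hold PBE-boxes just downstream of the G-box and again 729 to 776 bases upstream.

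Levels are given as log2 of CPM (reads scaled to a fixed library total) with 0.5 read added per gene, the scale on which the authors deposited them, and CPM alone is the linear value. The libraries held between 3500325 and 4481869 assigned reads. Changes are differences of group means on that log2 scale, tested with limma over 21316 genes with Benjamini-Hochberg adjustment, and a change was called when its adjusted p was below 0.05. Green tissue markers (RBCS1A, LHCB3, PSAE1), root markers (EXPA7, COBL9, PIN2) and seed storage genes were all detected. The green marker sum averaged 9951 CPM in shade at 28 °C, 13772 CPM in shade at 20 °C, 12853 CPM in white light at 28 °C and 20275 CPM in white light at 20 °C, the root marker sum lay between 87.2 and 112 CPM in every library, and 1 library in shade at 20 °C held 190 CPM of seed storage transcripts, against 37.8 CPM or less in the other libraries. In RNA from whole seedlings, fewer cells of a type and less RNA per cell cannot be told apart.

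The first comparison asked what shade did to the brakes at 20 °C. All 4 rose, HFR1 and PIL1 by far the most. HFR1 stood at 5.22, 5.47 and 5.54 on the log2 scale in shade at 20 °C, against 2.67, 1.87 and 2.05 in white light at 20 °C. The lowest shade library lay well above the highest white light library. The rise was 3.21 ± 0.23 (SE, limma adjusted p = 1.33e-10), which is 9.28-fold with a 95% interval of 6.72 to 12.8, and HFR1 held rank 12 by p among the 21316 genes tested.

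PIL1 was nearly silent in white light. It stood at 3.81, 3.98 and 3.68 in shade at 20 °C, against -0.36, -0.76 and 0.65 in white light at 20 °C. These are 62, 68 and 52 reads in shade and 3, 2 and 5 reads in white light, so the groups were far apart but the white light level rests on 10 reads in all. Summed over the libraries of a group, PIL1 had 14.1 CPM in shade (exact Poisson 95% interval 12.1 to 16.3) and 0.819 CPM in white light (0.393 to 1.51). These intervals cover counting error only and leave out the spread between libraries, and copies made by PCR were not marked. The rise was 3.98 ± 0.48 (SE, limma adjusted p = 1.07e-06), or 15.7-fold with an interval of 8.0 to 31.0. With a larger constant, log2(CPM + 1), it was 3.05, as the added constant weighs most on a gene with few reads.

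The PAR pair rose by less. PAR1 stood at 5.34, 4.84 and 5.49 in shade at 20 °C, against 3.75, 4.23 and 4.18 in white light at 20 °C, and rose by 1.17 ± 0.19 (SE, limma adjusted p = 8.75e-05). PAR2 stood at 3.69, 3.87 and 3.95 in shade at 20 °C, against 2.62, 2.65 and 2.55 in white light at 20 °C, and rose by 1.23 ± 0.28 (SE, limma adjusted p = 0.00425). In neither did the groups overlap, and the folds were 2.25 for PAR1 (1.72 to 2.93) and 2.35 for PAR2 (1.58 to 3.49). The count of 4 risen among 4 genes stands beside 8.09% of all tested genes called in this comparison and 5.43% called higher, and the count of 4 without overlap beside 15.3% of all tested genes. The median change of the 4 genes was 2.22, against 0.05 over all tested genes.

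**Figure D2:**
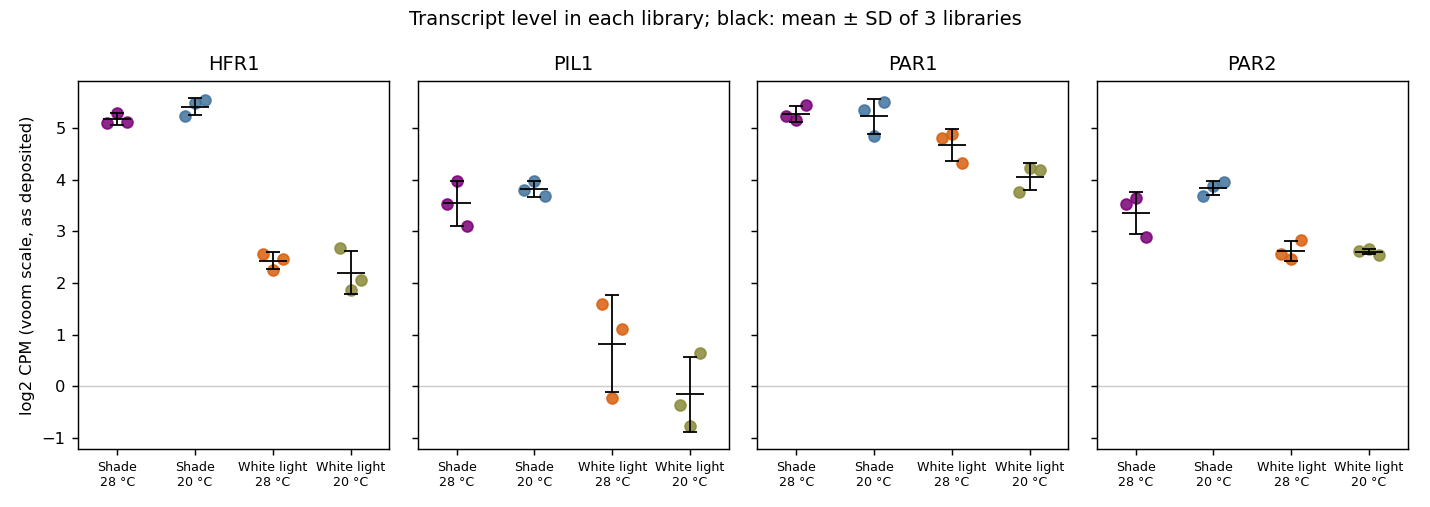
Level of each gene in each library, as log2 CPM with 0.5 read added, by group. Points are libraries (3 per group) and black bars are their mean ± SD; both shade groups lie above both white light groups for HFR1 and PIL1, and the groups lie closer together for PAR1 and PAR2.

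The second comparison asked the same at 28 °C. HFR1 and PIL1 rose again, while the changes of PAR1 and PAR2 were not called. HFR1 stood at 5.09, 5.30 and 5.11 in shade at 28 °C, against 2.57, 2.26 and 2.47 in white light at 28 °C, and rose by 2.73 ± 0.23 (SE, limma adjusted p = 9.64e-09; 6.64-fold, interval 4.81 to 9.17). At this temperature it held rank 7 by p of the 21316 genes tested.

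PIL1 stood at 3.53, 3.98 and 3.11 in shade at 28 °C, against 1.60, -0.22 and 1.10 in white light at 28 °C. The white light libraries spread over more of the scale than the shade libraries, on 12, 3 and 9 reads. The rise was 2.71 ± 0.48 (SE, limma adjusted p = 0.000499; 6.55-fold, interval 3.33 to 12.9), and it was 2.19 with log2(CPM + 1).

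PAR1 stood at 5.23, 5.14 and 5.44 in shade at 28 °C, against 4.81, 4.89 and 4.32 in white light at 28 °C. Its change of 0.60 ± 0.19 was just short of the threshold (SE, limma adjusted p = 0.0663, unadjusted p = 0.00348), with an interval of 1.16 to 1.98-fold. It was called with quantile normalization (0.62, limma adjusted p = 0.0477), with precision weights (0.61, limma adjusted p = 0.0493) and without replicate 2 of shade at 20 °C (0.60, limma adjusted p = 0.0469), a library outside the contrast that enters through the shared spread.

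PAR2 stood at 3.53, 3.65 and 2.88 in shade at 28 °C, against 2.57, 2.46 and 2.83 in white light at 28 °C. Its shade library of replicate 3 was only just above its highest white light library, and the change was 0.73 ± 0.28 (SE, limma adjusted p = 0.167; interval 1.12 to 2.47-fold). With 2 of 4 genes called higher, the background in this comparison was 4.59% of all tested genes called and 2.68% called higher; all 4 genes were higher without overlap, as were 9.82% of all tested genes. The median change of the 4 genes was 1.72, against -0.02 over all tested genes.

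Whether the response to shade itself differed between the temperatures was tested as the change at 28 °C minus the change at 20 °C. All 4 differences were negative and none was called, where 0.446% of all tested genes were called. The median difference of the 4 genes was -0.53, and that of all tested genes was also negative, at -0.08. PIL1 had the largest, -1.27 ± 0.67 (SE, limma adjusted p = 0.552), a ratio of folds of 0.416 with an interval of 0.160 to 1.08. HFR1 was at -0.48 ± 0.32 (limma adjusted p = 0.656; ratio 0.715, interval 0.453 to 1.13). PAR1 was at -0.57 ± 0.26 (limma adjusted p = 0.48, unadjusted p = 0.0404; ratio 0.674, interval 0.463 to 0.982). PAR2 was at -0.50 ± 0.39 (limma adjusted p = 0.714; ratio 0.707, interval 0.403 to 1.24). With 1 library omitted at a time the difference ran from -0.72 to -0.32 for HFR1, from -1.79 to -0.88 for PIL1, from -0.76 to -0.42 for PAR1 and from -0.65 to -0.27 for PAR2, and none was called. The PAR2 value of -0.27 was without replicate 3 of shade at 28 °C, and the HFR1 value of -0.32 without replicate 2 of white light at 20 °C. The 95% intervals leave room for equal responses of HFR1, PIL1 and PAR2, and for responses at 28 °C of less than 0.5 times those at 20 °C in each of the 4 genes. The comparison at 28 °C therefore does not show that PAR1 and PAR2 stopped responding.

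**Figure D3:**
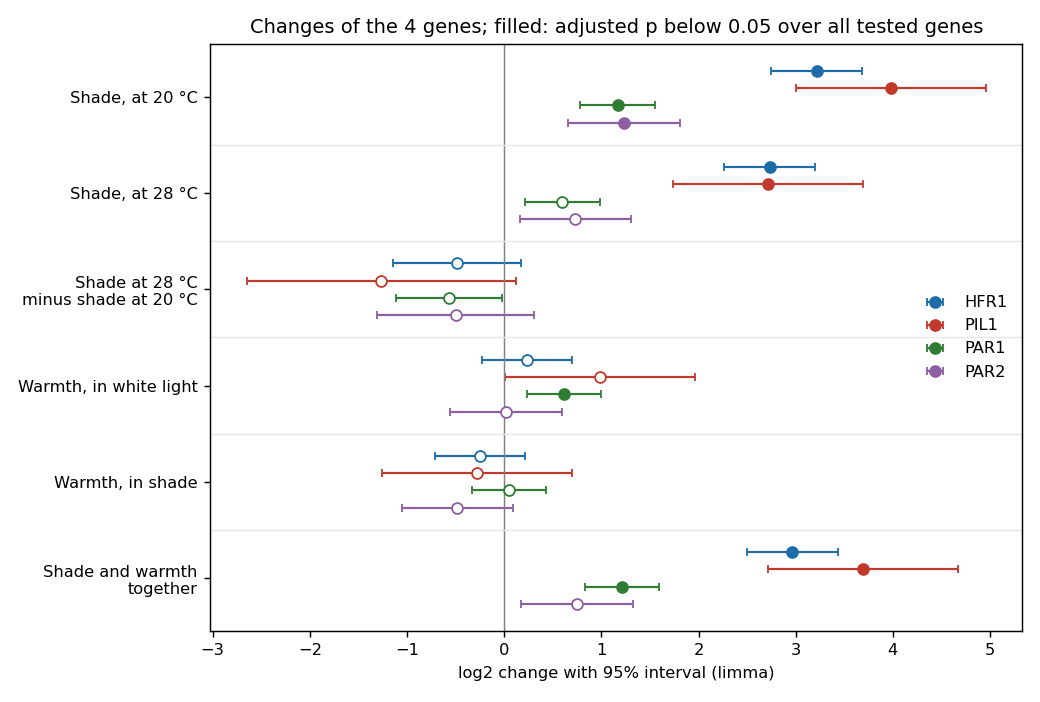
Change of each gene on the log2 scale with its 95% interval from limma, for 6 comparisons. Filled points have an adjusted p below 0.05 over all tested genes; shade changes of HFR1 and PIL1 are filled at both temperatures, those of PAR1 and PAR2 only at 20 °C, and every difference between the temperatures is open.

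Over both temperatures, each gene was compared between 6 shade and 6 white light libraries with a 2-sided exact permutation test. This test cannot give a p below 0.00216. It shuffled libraries across both temperatures, and so made no allowance for any effect of temperature. HFR1 averaged 5.29 ± 0.19 in shade and 2.32 ± 0.31 in white light on the log2 scale (SD, n = 6 each; exact permutation p = 0.00216). PIL1 averaged 3.68 ± 0.33 in shade and 0.34 ± 0.92 in white light (SD, n = 6 each; exact permutation p = 0.00216). PAR2 averaged 3.60 ± 0.38 in shade and 2.61 ± 0.12 in white light (SD, n = 6 each; exact permutation p = 0.00216). For these 3 genes every shade library was above every white light library. For PAR2 the margin was narrow, with 2.88 in its lowest shade library and 2.83 in its highest white light library. The share of all tested genes separated in this way was not counted.

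PAR1 was the exception. It averaged 5.25 ± 0.24 in shade and 4.36 ± 0.42 in white light (SD, n = 6 each; exact permutation p = 0.00433), and its lowest shade library, 4.84 at 20 °C, was below its highest white light library, 4.89 at 28 °C. Within 1 temperature, 3 libraries against 3 cannot give a permutation p below 0.10. The averaged shade change by limma was 2.97 ± 0.16 for HFR1 (adjusted p = 3.11e-13), 3.34 ± 0.34 for PIL1 (3.19e-08), 0.88 ± 0.13 for PAR1 (2.05e-05) and 0.98 ± 0.20 for PAR2 (0.000908). All 4 were called, where 11.6% of all tested genes were called and 6.89% were called higher. Beside these rises, the green markers moved the other way, with 3 of 3 called lower in the averaged shade effect, where 4.68% of all tested genes were called lower. Of the seed storage markers 1 of 3 tested was called higher (CRA1, a cruciferin, by 1.80 ± 0.57, SE; limma adjusted p = 0.0368), with a median change of 1.55, and 0 of 3 root markers were called, with a median of 0.07. The part of these shifts in the rises was not tested.

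The next comparison asked what warmth did in white light. PAR1 rose, and the other 3 genes were not called. PAR1 stood at 4.81, 4.89 and 4.32 in white light at 28 °C, against 3.75, 4.23 and 4.18 in white light at 20 °C, without overlap, and rose by 0.62 ± 0.19 (SE, limma adjusted p = 0.0245; 1.53-fold, interval 1.18 to 2.0). That is 1 gene of 4, where 15.6% of all tested genes were called and 10.8% called higher, and 23.5% were higher without overlap. All tested genes had a median change of 0.16 here, and with each library's median subtracted PAR1 was at 0.46 and was not called (limma adjusted p = 0.12). Leaving out single libraries also ended the call: it was 0.46 when white light 20 °C replicate 1 was omitted (limma adjusted p = 0.129), and 0.55 or 0.51 when replicate 1 or 2 of the 28 °C group was omitted (limma adjusted p = 0.0849 and 0.124).

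PIL1 was at 0.98 ± 0.48 with warmth in white light (SE, limma adjusted p = 0.172; interval 1.0 to 3.89-fold), on 24 reads in the libraries at 28 °C and 10 reads in those at 20 °C, and its groups overlapped. Replicate 2 at 28 °C held only 3 reads, and with that library omitted PIL1 was at 1.51 and was called (limma adjusted p = 0.037). HFR1 was at 0.24 ± 0.23 (SE, limma adjusted p = 0.537; interval 0.852 to 1.63-fold) and PAR2 at 0.02 ± 0.28 (SE, limma adjusted p = 0.977; interval 0.681 to 1.51-fold). Both had overlapping groups, the PAR2 value turned negative when medians were subtracted (-0.14) or with quantile normalization (-0.16), and their intervals end below the rise that shade gave HFR1 and below the 2.35-fold that shade gave PAR2 at 20 °C.

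Warmth in shade changed none of the 4 genes past the threshold, where 4.18% of all tested genes were called. The changes were -0.25 ± 0.23 for HFR1 (SE, limma adjusted p = 0.641), -0.28 ± 0.48 for PIL1 (0.83), 0.05 ± 0.19 for PAR1 (0.938) and -0.48 ± 0.28 for PAR2 (0.401). PAR2 was lower in all 3 libraries of shade at 28 °C than in any of shade at 20 °C, as were 7.37% of all tested genes, while the groups of the other 3 genes overlapped. With replicate 3 of shade at 28 °C omitted, PAR2 was at -0.25 and PIL1 at -0.069, and with replicate 2 omitted PIL1 was at -0.50. The sign of the PAR1 value turned with each library's median subtracted (-0.062) and with quantile normalization (-0.014). Reads of 18S ribosomal RNA took 1.77 ± 0.55% of a library in shade at 28 °C and 0.749 ± 0.165% in shade at 20 °C (SD, n = 3 each), and their part in these values was not tested.

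Shade and warmth together were set against white light at 20 °C, the group with neither. HFR1 rose by 2.97 ± 0.23 (SE, limma adjusted p = 1.64e-10; 7.81-fold, interval 5.66 to 10.8), PIL1 by 3.69 ± 0.48 (limma adjusted p = 1.39e-06; 12.9-fold, interval 6.57 to 25.5) and PAR1 by 1.21 ± 0.19 (limma adjusted p = 1.9e-05; 2.32-fold, interval 1.78 to 3.03). PAR2 was at 0.75 ± 0.28 and just missed the threshold (SE, limma adjusted p = 0.054; interval 1.13 to 2.50-fold). It was called without replicate 3 of shade at 28 °C, its lowest shade library (0.98, limma adjusted p = 0.0216), with a constant prior variance (limma adjusted p = 0.0273) and with a stricter filter (limma adjusted p = 0.0479). So 3 of 4 genes rose, where 22.3% of all tested genes were called and 14.9% called higher; all 4 were higher without overlap, as were 24.3% of all tested genes. This comparison shares its white light libraries with shade alone at 20 °C, where the changes were 3.21, 3.98, 1.17 and 1.23 for HFR1, PIL1, PAR1 and PAR2 in that order.

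To compare levels between the genes, CPM was divided by the annotated exon length of each gene. In white light at 20 °C PAR1 was the most abundant, at 13.9 ± 2.40 CPM per kb, followed by PAR2 at 5.73 ± 0.217, HFR1 at 3.02 ± 0.950 and PIL1 at 0.497 ± 0.293 (SD, n = 3). The order in white light at 28 °C was the same, with 21.4 ± 4.24 for PAR1, 5.84 ± 0.807 for PAR2, 3.48 ± 0.386 for HFR1 and 1.10 ± 0.634 CPM per kb for PIL1. In both white light groups the neighbours in this order were further apart than their SDs.

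In shade HFR1 came next to PAR1 in this order. In shade at 20 °C PAR1 was at 31.5 ± 6.97 CPM per kb and HFR1 at 28.0 ± 3.22, with overlapping ranges of mean ± SD. Both were above PAR2 at 13.7 ± 1.27 and PIL1 at 8.17 ± 0.877 (SD, n = 3). In shade at 28 °C the order was PAR1 at 32.1 ± 3.49, HFR1 at 23.5 ± 1.93, PAR2 at 9.95 ± 2.62 and PIL1 at 6.87 ± 2.07 CPM per kb. There the ranges of mean ± SD of PAR2 and PIL1 overlapped. Within each library, however, PAR2 was above PIL1 (10.95 against 6.61, 11.9 against 9.06 and 6.97 against 4.94). Of the summed level of the 4 genes per kb, HFR1 made up 32.4 ± 1.28% in shade at 28 °C and 11.04 ± 1.75% in white light at 28 °C, and 34.5 ± 3.58% in shade at 20 °C and 13.3 ± 5.14% in white light at 20 °C (SD, n = 3). PAR1 made up 44.5 ± 6.32% in shade at 28 °C and 66.8 ± 7.43% in white light at 28 °C, and 38.5 ± 6.28% in shade at 20 °C and 59.7 ± 6.78% in white light at 20 °C. The sum itself was 72.5 ± 3.08 CPM per kb in shade at 28 °C, 81.4 ± 7.55 in shade at 20 °C, 31.8 ± 3.31 in white light at 28 °C and 23.1 ± 1.49 in white light at 20 °C.

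**Figure D4:**
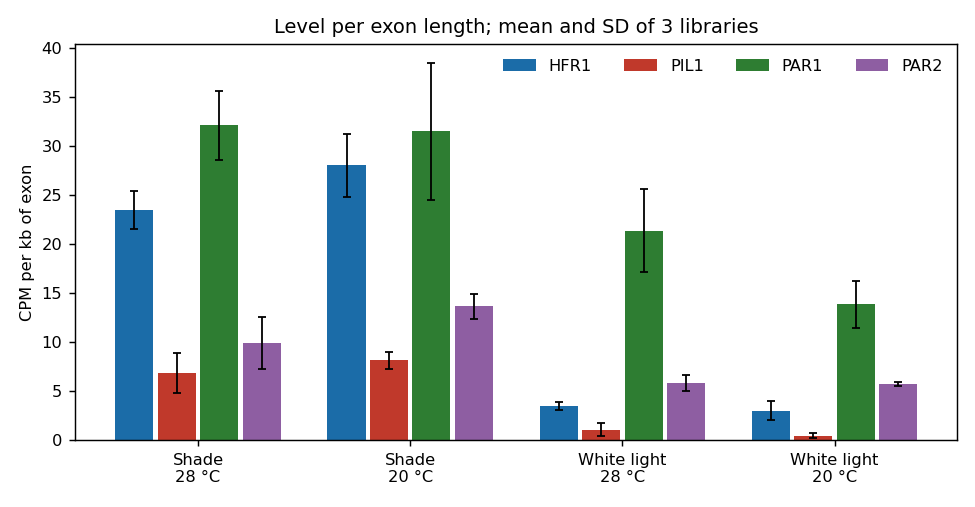
Level of the 4 genes per exon length, in CPM per kb, in the 4 groups. Bars are means of 3 libraries and error bars SDs; HFR1 stands at 28.0 in shade at 20 °C against 3.02 in white light at 20 °C, while PAR1 is the tallest bar in every group.

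PAR1 and PAR2 are related in sequence, so their reads could be hard to separate. The longest run of identical bases between their exons was 26, and between any other pair of the 4 genes 15 or less. Whether reads were shared between them, or with genes outside the 4, was not tested. No annotated gene overlapped any of the 4.

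Among the genes upstream of the brakes, the 6 PIF genes listed (PIF1, PIF3, PIF4, PIF5, PIF7 and PIF8) gave no call in shade at 20 °C, with a median change of -0.04. PIF4, the main PIF of warmth responses, was at 0.08 ± 0.14 there and at -0.08 ± 0.14 in shade at 28 °C (SE). In shade at 28 °C, where 1.9% of all tested genes fell, 2 of the 6 fell: PIF3 by 0.75 ± 0.15 (SE, limma adjusted p = 0.00265) and PIF7, the main PIF of shade responses, by 0.88 ± 0.25 (SE, limma adjusted p = 0.043). PIF3 averaged 5.57 in shade and 6.32 in white light at 28 °C, and 5.44 in shade and 5.52 in white light at 20 °C. With warmth in white light PIF3 rose by 0.80 ± 0.15 (SE, limma adjusted p = 0.00062), where 10.8% of all tested genes were called higher. The PIF3 call in shade at 28 °C was lost with a constant prior variance (limma adjusted p = 0.102). The PIF7 call was lost in 11 of 22 alternative settings, with an adjusted p of up to 0.223 by limma when replicate 3 of shade at 28 °C was left out (-0.66); leaving out replicate 2 of that group, any white light library of 28 °C, or replicate 3 of either 20 °C group also ended it. The value was negative in all of these settings. PIF protein activity was not measured.

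Of 5 phytochrome genes, 1 rose in shade at 20 °C and 2 rose at 28 °C, where 5.43% and 2.68% of all tested genes rose at 20 and 28 °C. PHYA, the far-red light receptor, rose by 1.3 ± 0.12 in shade at 20 °C (SE) and by 0.49 ± 0.12 in shade at 28 °C (limma adjusted p = 9.37e-09 at 20 °C and 0.0114 at 28 °C), and PHYB, the main receptor of shade, rose by 0.55 ± 0.12 in shade at 28 °C (limma adjusted p = 0.00313). The PHYA call at 28 °C was lost without replicate 1 or 2 of the white light group (0.35 and 0.43) or without shade replicate 1 (0.44). It was also lost with a constant prior variance (limma adjusted p = 0.194) and without a filter on low values (limma adjusted p = 0.124). The PHYA groups at 28 °C overlapped. The PHYB call at 28 °C was lost with a constant prior variance (limma adjusted p = 0.0535). Of COP1 and the 4 SPA genes, whose proteins mark HFR1 for breakdown, 1 fell in shade at 20 °C, as did 2.66% of all tested genes: SPA3, by 0.67 ± 0.20 (SE, limma adjusted p = 0.0339), a call lost in 7 of 22 alternatives, among them leaving out any white light library of that temperature, and shade replicate 1 or 3. None of these 5 was called in shade at 28 °C. With warmth in white light 2 of the 5 fell, SPA1 by 0.81 and SPA3 by 1.06, as did 4.8% of all tested genes.

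The growth-promoting bHLH proteins and the HLH proteins that restrain or release them form the other arm of this network. Of 16 such genes tested, 7 rose and 0 fell in shade at 20 °C, with a median change of 0.52, where 5.43% of all tested genes rose and their median was 0.05. In shade at 28 °C 3 rose and 0 fell, with a median of 0.38, where 2.68% of all tested genes rose and their median was -0.02. AIF3, an HLH repressor of growth, rose by 1.14 ± 0.12 at 20 °C (SE, limma adjusted p = 6.58e-08) and by 0.50 ± 0.12 at 28 °C (limma adjusted p = 0.00751). Its call at 28 °C was lost without white light replicate 2 (0.46, limma adjusted p = 0.0589) and with a constant prior variance (limma adjusted p = 0.0785). HBI1, a growth-promoting bHLH factor, rose by 0.995 ± 0.12 at 20 °C (limma adjusted p = 2.36e-06) and was at 0.28 ± 0.12 at 28 °C (limma adjusted p = 0.265). At 20 °C these 2 calls held in all 22 alternatives, and each of the other 5 was lost in at least 1, so that the count ran from 3 to 8 at 20 °C, and from 1 to 4 at 28 °C.

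A list of 11 other genes known as shade-induced (the HD-ZIP II genes HB-2, HB4, HAT1, HAT2 and HAT3, the auxin genes IAA19, IAA29, YUC8 and YUC9, the wall enzyme gene XTH15 and the cytokinin oxidase gene CKX5) gave 9 rises in shade at 20 °C and 10 in shade at 28 °C, and no fall in either, where 5.43% of all tested genes rose at 20 °C and 2.68% at 28 °C. Their median change was 1.37 in shade at 20 °C and 1.09 in shade at 28 °C. As the list was chosen with earlier results of these data known, its counts are no independent test. The medians of the 4 brakes, 2.22 and 1.72, fall in the gap between HFR1 and PIL1 and the PAR pair. At both temperatures HFR1 and PIL1 were above the median of the 11 genes, and PAR1 and PAR2 were below it. HFR1 and PIL1 lay with IAA29 (3.86 ± 0.30 at 20 °C and 3.03 ± 0.30 at 28 °C, SE) and XTH15 (3.75 ± 0.19 and 2.76 ± 0.19), while PAR1 and PAR2 lay with CKX5 (1.01 ± 0.17 and 0.63 ± 0.17), HAT3 (0.90 ± 0.19 and 0.68 ± 0.19) and YUC8 (1.57 ± 0.20 and 1.09 ± 0.20). Others did not fall with either: HB-2 (2.26 at 20 °C and 2.655 at 28 °C) and IAA19 (1.92 and 2.22) lay between the PAR pair and the other brakes. HAT1 (0.66 and 0.73) and HAT2 (0.52 and 0.87) were below the PAR pair at 20 °C and near it at 28 °C. HB4 was at 1.37 ± 0.74 and 3.20 ± 0.74 (SE). HB4 at 20 °C and YUC9 at both temperatures were not called. The count at 28 °C fell to 6 in the least favourable alternative, and that at 20 °C to 8.

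**Figure D5:**
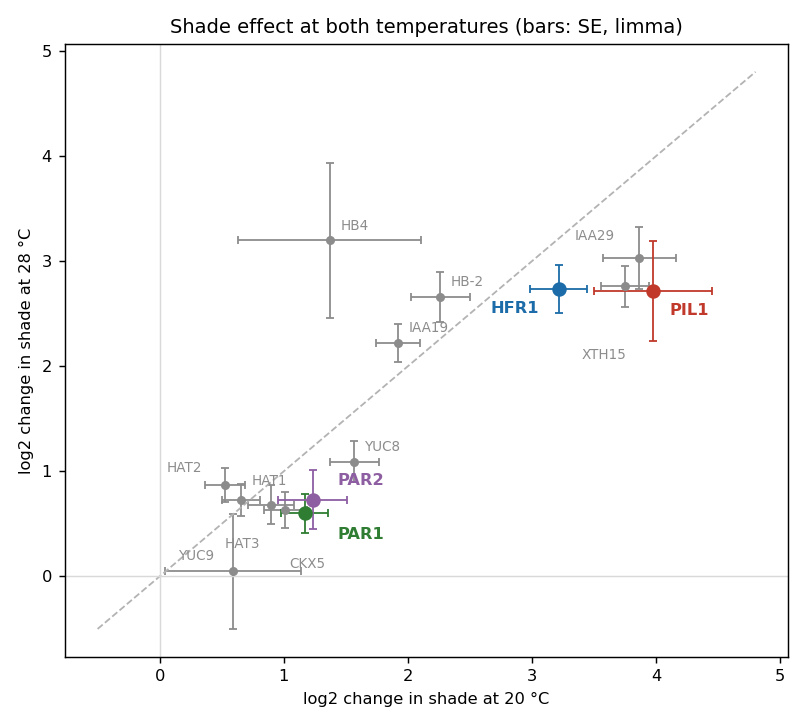
Change in shade at 28 °C against change in shade at 20 °C, both on the log2 scale with SE bars, for the 4 brakes (coloured) and 11 other shade-induced genes (grey); the dashed line marks equal changes. HFR1 and PIL1 lie at the upper right near IAA29 and XTH15, and PAR1 and PAR2 at the lower left near CKX5 and HAT3, with all 4 below the line.

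SAUR15 and SAUR68, auxin-induced genes known to be repressed by PAR1 and PAR2, were not called in shade at 20 or 28 °C with all libraries. SAUR68 was at 0.99 in shade at 20 °C (limma adjusted p = 0.276) and at 1.55 in shade at 28 °C (limma adjusted p = 0.0876). At 28 °C it was called with white light replicate 3 omitted (2.17, limma adjusted p = 0.0113). In the averaged shade effect it was called higher, by 1.27 ± 0.36 (SE, limma adjusted p = 0.0189). That call was lost in 6 of 21 alternatives, 4 of which left out 1 library (replicate 1 of either white light group, the 20 °C shade replicate 3, and the 28 °C shade replicate 2), and SAUR68 has close copies beside it between which reads could be split. SAUR15 had too few reads in several libraries for a change to be read.

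The genes whose levels ran most like each brake over the 12 libraries were listed by Pearson correlation among 18563 genes. For HFR1 they were FLA8 (0.98), a fasciclin-like arabinogalactan protein, AT3G59350 (0.98), AGP21 (0.97), an arabinogalactan protein, and AT5G16590 (0.97). For PIL1 they were FLP1 (0.96), AT3G23750 (0.96), the auxin synthesis gene YUC8 (0.96) and the homeobox gene HAT3 (0.96). For PAR1 they were AT3G42800 (0.98), BCAT-2 (0.96), a branched-chain amino acid aminotransferase, PIRL4 (0.96) and AT5G05180 (0.95). For PAR2 they were RLP51 (0.96), AT3G59350 (0.95), the beta-tubulin gene TUB9 (0.94) and AT5G58950 (0.93). Only AT3G59350 stood on more than 1 of these lists of 4. Correlation takes no account of the size of a change. In shade at 20 and 28 °C FLA8 was at 0.81 and 0.78, against 3.21 and 2.73 for HFR1. AT5G58950 was at 0.17 and 0.07, against 1.23 and 0.73 for PAR2, while AT3G42800 was at 2.25 and 1.53, against 1.17 and 0.60 for PAR1. The libraries fall into shade and white light, and how far these values follow that split was not tested.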

How the data were processed

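Polyadenylated RNA from whole seedlings was sequenced as read pairs, per the labels' protocols. The authors deposited a single table of log2 values in another unit than reads: log2 CPM, on the voom scale per the labels; the 0.5 read added was read from the values. Columns headed ambient and heat were matched to 20 and 28 °C. The submitters' processing notes name TopHat2 2.1.1, SAMtools 1.3, limma, R 4.0.2 and the TAIR10 build; which program counted reads is not given in the sources used here. Dividing out the library total gave whole reads for 100% of the deposited values, to within 0.001 read. Reads were not stated to keep strand.

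Genes with a log2 value of at least 0 in at least 3 of 12 libraries were tested (21316 of 33602). A model of 4 group means was then fitted by limma 3.58.1 under R 4.3.3 (trended prior variance, equal weights, 2-sided, Benjamini-Hochberg over tested genes). Permutation tests and tables used Python 3.11.15, scipy 1.17.1 and pandas 2.3.3. The script was tested on simulated data. Members and gene lists were chosen with earlier results of these data known; the text names the 4 genes, list members by counts and calls, and for each of the 4 the 4 most correlated genes whose mean log2 value reached 1. Sequences and exon lengths are from RefSeq TAIR10.1, a later annotation release than the build the authors used, matched by gene identifier (4 of 4); stretches were chosen after the matches were seen. Same-numbered libraries were checked for pairing, and replicates were treated as unpaired. Alternatives covered prior variance, filter, scaling, added constant, weights, a replicate block, the groups fitted and each library left out.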

Additional observations from a re-analysis of the deposited data

Results flagged for a closer look

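The shade effect on PHYA differed between the temperatures by the test of the difference itself: the change at 28 °C minus that at 20 °C on the log2 scale was -0.81 ± 0.17 (SE; limma adjusted p = 0.0181). PHYA stood at 9.35, 9.15 and 9.26 in shade at 28 °C, against 8.498, 8.64 and 9.15 in white light at 28 °C, and at 9.05, 9.10 and 9.14 in shade at 20 °C, against 7.74, 7.89 and 7.75 in white light at 20 °C. The call was lost in 7 of 21 alternatives, 4 of which left out 1 library (replicate 1 of white light at 20 °C, replicate 3 of shade at 20 °C, or replicate 2 or 3 of shade at 28 °C).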

How the results depend on the processing

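The calls of HFR1 and PIL1 in shade at either temperature, in shade with warmth and in the averaged shade effect, of PAR1 in the same combined and averaged comparisons, and of PAR1 and PAR2 in shade at 20 °C, held in every alternative run, including each library left out. Near the threshold sat PAR1 in shade at 28 °C and with warmth in white light, and PAR2 in shade with warmth. PAR2 in shade at 28 °C was called in no alternative, with a lowest adjusted p of 0.0767 by limma. In shade at 28 °C PAR1 was called with quantile normalization (0.62) and with precision weights (0.61), and leaving out 1 library gave 0.42 to 0.71. With warmth in white light the PAR1 call was lost with a constant prior variance (0.62), without a filter (0.62), with medians subtracted (0.46), with quantile normalization (0.45) and with precision weights (0.62), and leaving out 1 library gave 0.46 to 0.79. PAR2 in shade with warmth was called with a constant prior variance and with a stricter filter (0.75 in both), and leaving out 1 library gave 0.60 to 0.98.

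Signs turned where the value was close to 0. PAR1 with warmth in shade was at -0.062 with medians subtracted and -0.014 with quantile normalization (-0.14 to 0.18 with 1 library left out). PAR2 with warmth in white light was at -0.14 with medians subtracted and -0.16 with quantile normalization (-0.088 to 0.096 with 1 library left out). Leaving out 1 library gave PIL1 0.60 to 1.51 with warmth in white light, PIF4 -0.034 to 0.17 in shade at 20 °C and -0.17 to 0.026 in shade at 28 °C, and YUC9 -0.24 to 0.25 in shade at 28 °C. Apart from what these settings compute, the cause was not tested.

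Counts over all genes moved more. With a constant prior variance, shade called 670 genes higher and 249 lower at 20 °C (1158 and 566 as reported), and 233 and 124 at 28 °C (572 and 406). Warmth called 1328 and 622 in white light (2310 and 1023), and 107 and 77 in shade (467 and 425). With medians subtracted, warmth in white light called 983 higher and 1487 lower, warmth in shade 239 and 713, and shade with warmth 1792 and 2237 (3173 and 1582 as reported). Quantile normalization gave 1158 higher for warmth in white light and 1917 for shade with warmth. Without a filter, shade at 28 °C called 366 and 246, shade at 20 °C 331 lower, and warmth in shade 196 and 174. Over all alternatives, each library left out included, the averaged shade effect called 947 to 1527 higher and 519 to 1243 lower (1468 and 997 as reported), and the difference between temperatures 4 to 51 and 2 to 104 (27 and 68 as reported).

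Replicate numbers did not pair the libraries: 18 same-numbered pairs had residual correlations of -0.03 to 0.04, and 3 of 12 libraries correlated best with their own number. With a replicate block no call of the 4 genes changed (PAR1 in shade at 28 °C stayed at 0.60, limma adjusted p = 0.0741), and shade at 20 °C called 1217 genes higher and 592 lower. Depth limits PIL1 most, which had 2 to 12 reads per white light library.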
